A study of Mus musculus with 9 samples.

Results

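The genes described here are 44 genes of the cell division cycle, chosen by name for what they do. Of these, 22 act in DNA replication (Mcm2 to Ccne2 of the list: helicase subunits, origin factors, fork enzymes and regulators of S phase entry) and 22 act in G2 and mitosis (cyclins, mitotic kinases, spindle and chromosome genes). They were taken from a table of 26858 genes measured by RNA sequencing of nephron progenitor cells sorted from mouse kidneys at E18.5, shortly before birth. The 4 control libraries came from Six2-Qpc+/- kidneys and the 5 mutant libraries from Six2-Qpc-/- kidneys. Qpc is Uqcrq, which encodes a subunit of mitochondrial respiratory complex III. Both genotypes carried a transgene in which Six2 regulatory sequence drives a fusion of eGFP and Cre recombinase, so the controls also expressed Cre and had lost 1 allele of Qpc in these cells, and no library came from cells without Cre. The eGFP+ cells were the ones collected. Whether a library holds 1 kidney, 1 embryo or a pool was not given, so p-values measure the spread between these samples, which may be technical. Values per library are given below in the order control 71, 72, 73 and 76, then mutant 74, 75, 77, 78 and 79.

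Replication starts when the origin recognition complex, CDC6 and CDT1 load rings of the proteins MCM2 to MCM7 onto DNA in G1. In S phase the rings are joined by CDC45 and the GINS complex to form the active helicase, primase and polymerase alpha lay down primers, the PCNA clamp holds the polymerases on the template, and FEN1 and LIG1 finish the lagging strand. Entry into S phase is driven by cyclin E and by E2F transcription factors, which act on the promoters of many replication genes. Mitotic genes peak later, in G2 and M, and many of their promoters carry a cell cycle genes homology region (CHR) bound by the DREAM and MuvB-FOXM1 complexes together with boxes for NF-Y. The cap mesenchyme that expresses Six2 both divides to renew itself and supplies the cells that form nephrons, and its division slows as birth approaches.

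The promoters of the 2 gene groups differ in their letters, and 4 are shown because, among the members given below with values in every library, they have the smallest p-values in each group with a motif match in the promoter. Ttk, with a smaller p-value than Bub1b, is not among those members. Windows from RefSeq (GRCm38.p6, from 250 bases before to 50 from the start site on, the start base counted as 0) were found for 36 of the 44 members, 18 in each group. Both strands were searched for an E2F motif (TTTCCCGC, TTTGGCGC, TTTCGCGC or TTTGCCGC), a CHR (TTTGAA or TTCGAA) and the NF-Y box CCAAT. The E2F words can overlap each other on opposite strands. Capitals mark the matches below, which run from 200 bases before to 29 after the start base, 5′ to 3′ on the strand of the gene. The Cdc6 window (chr11:98907951-98908180, + strand) holds an E2F match 138 bases before the start, read on the opposite strand, and its RefSeq start lies inside the longer GENCODE gene model. The Prim1 window (chr10:128015015-128015244, + strand) holds an NF-Y box and neither of the other motifs. The Cenpf window (chr1:189688057-189688286, - strand) holds 2 NF-Y boxes and a CHR just after the start. The Bub1b window (chr2:118598011-118598240, + strand) holds a CHR far upstream and an NF-Y box on the opposite strand, and a second CHR lies past the stretch shown.
Cdc6: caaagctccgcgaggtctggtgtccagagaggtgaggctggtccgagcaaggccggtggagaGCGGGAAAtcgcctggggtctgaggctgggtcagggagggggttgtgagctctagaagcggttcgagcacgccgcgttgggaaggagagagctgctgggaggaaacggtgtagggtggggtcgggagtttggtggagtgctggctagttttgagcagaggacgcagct
Prim1: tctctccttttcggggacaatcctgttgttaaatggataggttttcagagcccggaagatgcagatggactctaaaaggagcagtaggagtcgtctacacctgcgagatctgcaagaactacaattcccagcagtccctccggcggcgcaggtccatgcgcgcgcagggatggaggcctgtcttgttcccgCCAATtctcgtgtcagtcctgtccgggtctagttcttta
Cenpf: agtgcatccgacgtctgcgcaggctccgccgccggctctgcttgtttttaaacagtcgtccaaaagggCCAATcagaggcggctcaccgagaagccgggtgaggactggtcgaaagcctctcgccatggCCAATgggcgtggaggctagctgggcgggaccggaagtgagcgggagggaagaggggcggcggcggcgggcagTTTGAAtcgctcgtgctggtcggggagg
Bub1b: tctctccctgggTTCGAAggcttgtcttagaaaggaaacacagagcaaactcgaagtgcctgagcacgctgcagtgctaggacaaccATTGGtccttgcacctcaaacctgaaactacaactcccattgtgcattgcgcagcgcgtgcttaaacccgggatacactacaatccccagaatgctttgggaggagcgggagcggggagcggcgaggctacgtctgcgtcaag

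An E2F match was present in 9 of the 18 replication windows (50%) and in 1 of the 18 G2/M windows (5.56%, Cdk1). Among all 27025 genes with a window it was present in 2.6%, and among the 10475 of these tested here in 4.64%. The CHR showed the opposite split, with 14 of 18 G2/M windows (77.8%) and 4 of 18 replication windows (22.2%) against 21.7% of all genes and 16% of the genes tested. NF-Y boxes were present in 16 of 18 G2/M windows (88.9%) and 11 of 18 replication windows (61.1%), against 41.1% of all genes and 42.4% of those tested. A CHR and an NF-Y box together were present in 77.8% of G2/M windows, 16.7% of replication windows, 9.65% of all genes and 7.85% of those tested. A pair of helicase genes is shown as well, chosen after their values were seen, because the helicase subunits did not share 1 fitted change and yet both hold 2 E2F words that overlap on opposite strands, within a single run of capitals. The Mcm5 stretch is chr8:75109344-75109383 (+ strand) and the Mcm6 stretch is chr1:128359788-128359827 (- strand).
Mcm5: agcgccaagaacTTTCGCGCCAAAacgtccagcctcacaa
Mcm6: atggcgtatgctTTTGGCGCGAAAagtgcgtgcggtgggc

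**Figure D1:**
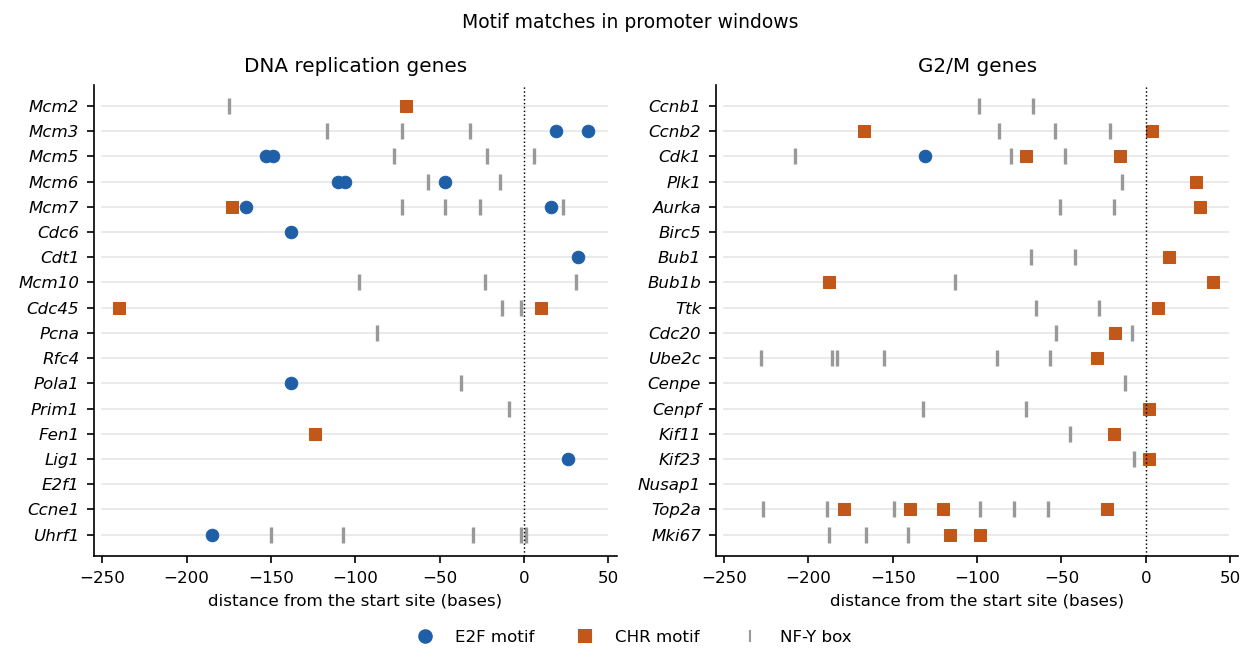
Positions of E2F, CHR and NF-Y motif matches (symbols) in bases from the start site (x axis) for the 18 replication and the 18 G2/M genes with a RefSeq promoter window; windows of genes with more than 1 start site are drawn on 1 line. E2F matches were present in 9 replication genes and 1 G2/M gene, and CHR matches in 4 and 14.

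The libraries held 21040536 to 23986458 counts each, so counting error was small: no tested member had fewer than 263 reads in any library. Levels are given as counts per 1000000 counts of the normalised library (CPM). Uqcrq was at 94.1 ± 13.3 CPM (SD, n = 4) in controls and 21.3 ± 4.45 CPM (n = 5) in mutants, without overlap (log2 fold change -2.14, SE 0.16, adjusted p = 2.09e-05). Progenitor markers were present in every library, with a summed level of 2057 to 2513 CPM in controls and 2049 to 2485 CPM in mutants, and 0 of 8 passed the test. Among them Six2 was fitted higher (log2 fold change 0.30, adjusted p = 0.131) and Crym lower (-0.42, adjusted p = 0.0698). Both passed with the offset for GC content and gene length described below (0.51, adjusted p = 0.00671, and -0.42, adjusted p = 0.0386). Of the 8 markers of committed nephron cells, 3 were called lower (Wnt4, Lhx1 and Ccnd1), beside 7.02% of all genes tested. Fgf8 (-1.11), Jag1 (-0.69), Bmp2 (-0.31), Cdh6 (-0.18) and Pax8 (-0.0020) did not pass the test, with adjusted p-values from 0.054 to 0.996. The summed levels of these markers overlapped between groups (368 to 716 against 273 to 413 CPM). Of the 7 stroma markers 6 were tested and 5 were higher (summed level 86.1 to 130 against 187 to 584 CPM). Pdgfrb was fitted lower (log2 fold change -0.51, adjusted p = 0.315). Of the 6 endothelial markers 4 were tested and 1 was higher, Pecam1 (summed level 2.57 to 5.52 against 3.94 to 9.33 CPM). Myeloid markers spread from 0.213 to 9.79 CPM in controls and from 5.11 to 104 CPM in mutants with 0 of 6 past the threshold. Of the 6 ureteric bud markers 3 were tested and 0 passed (44.9 to 62.9 against 27.3 to 49.4 CPM). Of the 7 erythroid markers 1 was tested and 0 passed, and they summed to 1.39 to 2.66 and 1.52 to 2.50 CPM, with Hba-a2, Hbb-bt and Slc4a1 at 3 reads or fewer in each of the 9 libraries. The part of these other cells in the values below was not tested. In bulk samples, fewer dividing cells and less RNA of these genes per cell cannot be told apart.

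In Six2-Qpc-/- progenitors a minority of the replication genes fell, each by a fitted value of less than a halving, and nearly all G2/M genes did not pass the test. Of the 43 members tested, 7 fell and 0 rose at an adjusted p-value under 0.05 (16.3% lower), where 7.02% of all 14990 genes tested were called lower and 7.82% higher. At an unadjusted p-value under 0.05, 14 members were lower and 0 higher, where 2273 of all 14990 genes tested were lower and 2436 higher. Members are abundant genes, and among the 9349 genes of at least 10 CPM, 7.22% were called lower and 9.21% higher. The genes called were Mcm3, Mcm5, Cdc6, Cdc45, Prim1 and Uhrf1 among replication genes (6 of 21, 28.6%) and Cenpf among G2/M genes (1 of 22, 4.55%, not above the background). Their fitted decreases ran from 27.5% for Mcm3 to 41.5% for Uhrf1.

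Below the threshold the direction was mostly shared. The fitted change was below 0 for 20 of 21 replication genes (median log2 fold change -0.36) and for 19 of 22 G2/M genes (median -0.21). Over all genes tested 50.8% were fitted lower (median -0.01), and over genes of at least 10 CPM 46.9% (median 0.03). Every mutant library lay below every control library for 5 members (Mcm3, Cdc6, Cdc45, Prim1 and Bub1b), and this was so for 7.73% of all genes tested. Whether the replication group differs from the G2/M group was not tested. With DESeq2 8 members were called lower, the 7 named and E2f1, beside 8.59% of the 16920 genes that DESeq2 gave an adjusted p.

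**Figure D2:**
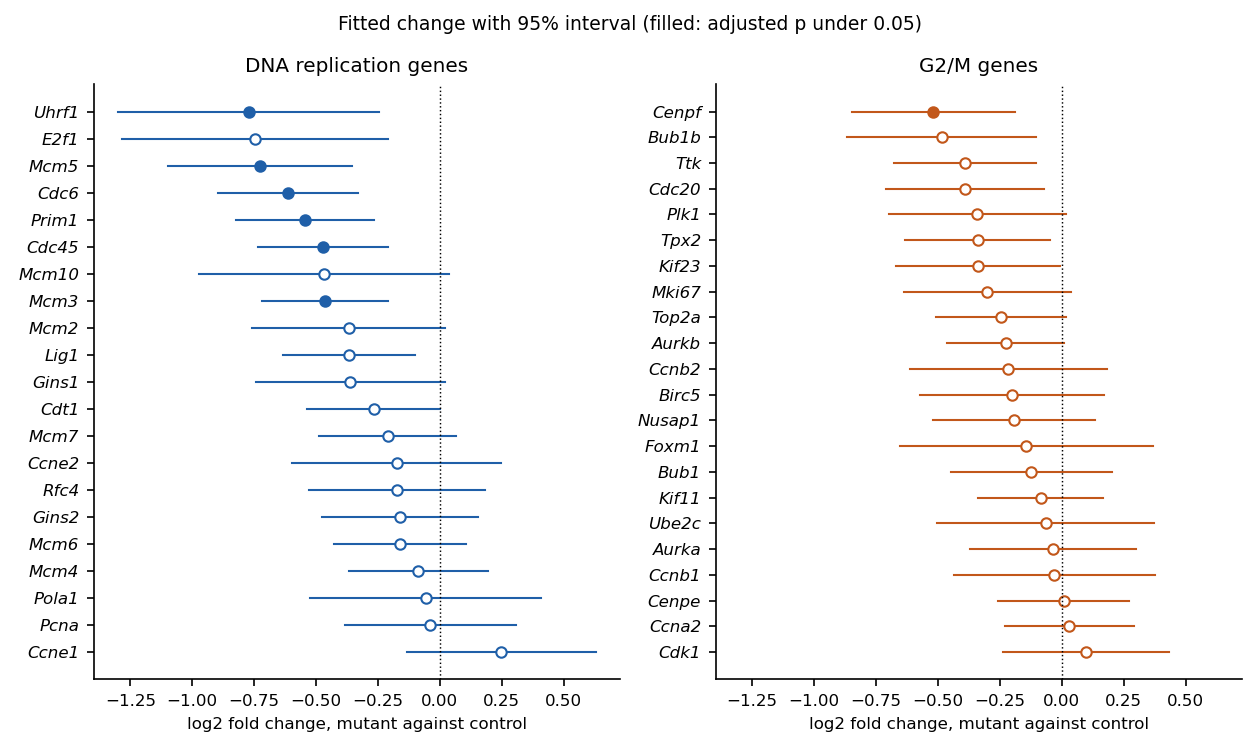
Log2 fold change of mutant against control (x axis) with its 95% interval for the 21 replication genes (left) and 22 G2/M genes (right) tested; filled points have an adjusted p-value under 0.05. Of the points, 20 on the left and 19 on the right lie below 0, and 14 intervals lie wholly below 0.

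**Figure D3:**
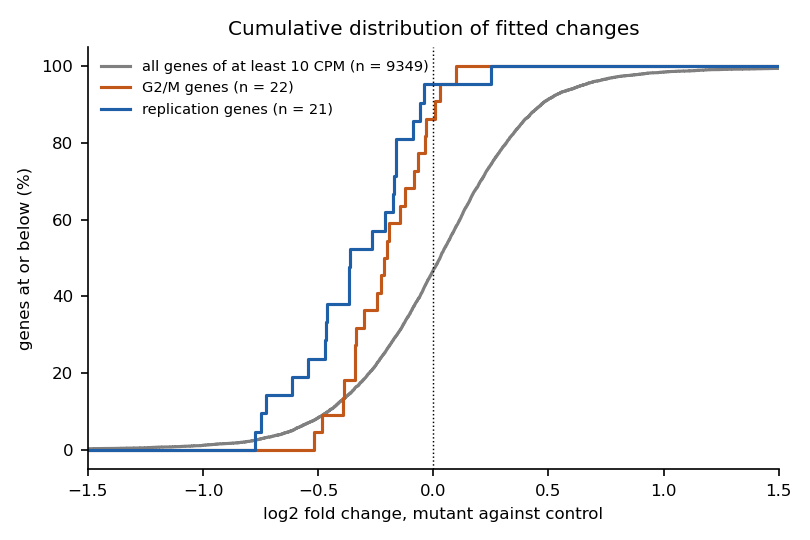
Share of genes (y axis, %) at or below each log2 fold change (x axis) for the 21 replication genes, the 22 G2/M genes and all 9349 genes of at least 10 CPM. The medians are -0.36, -0.21 and 0.03.

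The size of the changes was limited. The 95% interval reached a halving for 3 members, Mcm5, E2f1 and Uhrf1, and lay wholly below 0 for 14. Standard errors ran from 0.11 to 0.25 on the log2 scale. The spread between libraries set them: the coefficient of variation over control libraries ran from 1.56% (Cdc45) to 38.5% (Uhrf1), with a median of 17.6%, and over mutant libraries from 2.73% (Aurkb) to 36.0% (E2f1), with a median of 16.9%.

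Among the helicase subunits, which form 1 ring of 6 different proteins, Mcm3 and Mcm5 fell while the other 4 did not pass the test. Mcm3 (chr1:20802968-20820312 in GRCm38) was at 179, 241, 246 and 200 CPM in controls and 159, 148, 169, 143 and 166 CPM in mutants. The groups did not overlap, and the nearest libraries were control 71 and mutant 77. Its log2 fold change was -0.46 (SE 0.12, adjusted p = 0.0214, range over 17 alternatives 0.00199 to 0.0846; exact permutation p = 0.00794, 2-sided, the smallest that 4 against 5 libraries can give). The call was lost without control 72, control 73 or mutant 78. Mcm5 (chr8:75109528-75128439), the gene with the overlapping E2F words above, was at 135, 223, 226 and 177 CPM in controls and 139, 86.3, 121, 100 and 129 CPM in mutants. Control 71 was the only control to lie among the mutants, just below mutant 74. The log2 fold change of Mcm5 was -0.73 (SE 0.17, adjusted p = 0.0155, range 0.00101 to 0.0597; exact permutation p = 0.0159), and the call was lost without control 73. Mcm4 had the fitted value nearest 0, with 163, 231, 260 and 229 CPM against 192, 207, 212, 225 and 203 CPM. All mutant values of Mcm4 lay inside the control range (log2 fold change -0.09, 95% interval -0.37 to 0.19). The intervals of Mcm2 (-0.76 to 0.02), Mcm6 (-0.43 to 0.11) and Mcm7 (-0.49 to 0.07) also held 0. Mcm6, which carries the same kind of overlapping E2F pair as Mcm5, had a fitted value of -0.16. The difference between subunits was not tested.

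Of the 6 genes of origin licensing and firing, Cdc6 and Cdc45 fell, and all 6 were fitted lower (median log2 fold change -0.42). Cdc6 (chr11:98907801-98923940), the loader of the helicase whose promoter is shown above, was at 44.2, 48.9, 41.2 and 46.0 CPM in controls and 25.5, 34.7, 25.8, 31.2 and 30.2 CPM in mutants. The highest mutant, 75, lay below the lowest control, 73, and the fitted level was 34.6% lower. Its log2 fold change was -0.61 (SE 0.13, adjusted p = 0.00952, range 0.000465 to 0.033; exact permutation p = 0.00794). Cdc6 kept its call in all 17 alternatives. Cdc45 (chr16:18780447-18811987), part of the active helicase, was at 87.0, 88.5, 86.2 and 89.2 CPM in controls and 48.6, 62.2, 70.4, 65.0 and 70.1 CPM in mutants. The controls were the tightest of any member, and each mutant lay clearly below them. The log2 fold change of Cdc45 was -0.47 (SE 0.12, adjusted p = 0.0217, range 0.0064 to 0.06; exact permutation p = 0.00794), with the call lost without control 72 or control 73. Gins2, a subunit of the GINS complex, was at 84.6, 60.6, 82.2 and 91.7 CPM against 56.9, 85.2, 76.9, 70.8 and 66.6 CPM. The groups overlapped widely (log2 fold change -0.16, 95% interval -0.48 to 0.15), and 67.3% of the exonic bases of Gins2 are shared with Gse1 on the opposite strand, which these libraries without strand information cannot separate. Gins1 (-0.36), Mcm10 (-0.47) and Cdt1 (-0.27) did not pass the test.

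Among genes of DNA synthesis at the fork, Prim1, the catalytic subunit of primase, fell. Prim1 (chr10:128015168-128030037), which has an NF-Y box and no E2F match in its window, was at 117, 94.5, 101 and 110 CPM in controls and 56.4, 83.7, 70.3, 80.7 and 71.5 CPM in mutants. The groups did not overlap. The log2 fold change of Prim1 was -0.54 (SE 0.13, adjusted p = 0.0152, range 0.000833 to 0.0471; exact permutation p = 0.00794), and it was called in all 17 alternatives. Pcna, the sliding clamp, had 271, 255, 230 and 269 CPM in controls and 158, 261, 304, 279 and 245 CPM in mutants. Mutant 74 alone was low, and the other mutants lay within or above the control range (log2 fold change -0.04, 95% interval -0.38 to 0.31). Lig1, the ligase of the lagging strand, had a log2 fold change of -0.37 (SE 0.12, adjusted p = 0.0624). Rfc4 (-0.17), of the clamp loader, and Pola1 (-0.06), the catalytic subunit of polymerase alpha, were nearer 0. Fen1, the flap endonuclease, could not be tested: it had 11, 10, 6 and 6 reads in controls and 5, 5, 11, 5 and 2 reads in mutants. Of the 2422 exonic bases of Fen1, 84.2% are shared with genes on the opposite strand (78.8% with the antisense gene Gm10143). Its few counts may not measure its level, and the part of this overlap in them was not tested.

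The regulators of S phase entry and of methylation copying were the most variable. Uhrf1 (chr17:56303321-56323486), which brings the maintenance methyltransferase to newly copied DNA, was at 80.6, 178, 125 and 85.8 CPM in controls and 99.2, 48.0, 59.9, 57.7 and 78.5 CPM in mutants. The high values were those of controls 72 and 73, and mutant 74 lay above controls 71 and 76. Its log2 fold change was -0.77 (SE 0.25, adjusted p = 0.0498, range 0.00371 to 0.174; exact permutation p = 0.0556). Uhrf1 lost its call in 7 of 17 alternatives: with no filter on low counts, and without control 72, control 73, mutant 75, mutant 77, mutant 78 or mutant 79. E2f1, which encodes an E2F transcription factor, had 37.9 ± 10.9 CPM (n = 4) against 22.6 ± 8.13 CPM (n = 5). It had a log2 fold change of -0.75 (SE 0.25, adjusted p = 0.0596) and was called in 7 of 17 alternatives. The cyclin E genes lay on either side of 0. Ccne1 was at 25.2, 39.8, 30.3 and 34.6 CPM in controls and 33.8, 53.1, 39.0, 32.3 and 34.6 CPM in mutants, the one replication gene fitted higher (log2 fold change 0.25, 95% interval -0.13 to 0.63, adjusted p = 0.366). Ccne2 had a fitted value of -0.17 (95% interval -0.60 to 0.25).

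**Figure D4:**
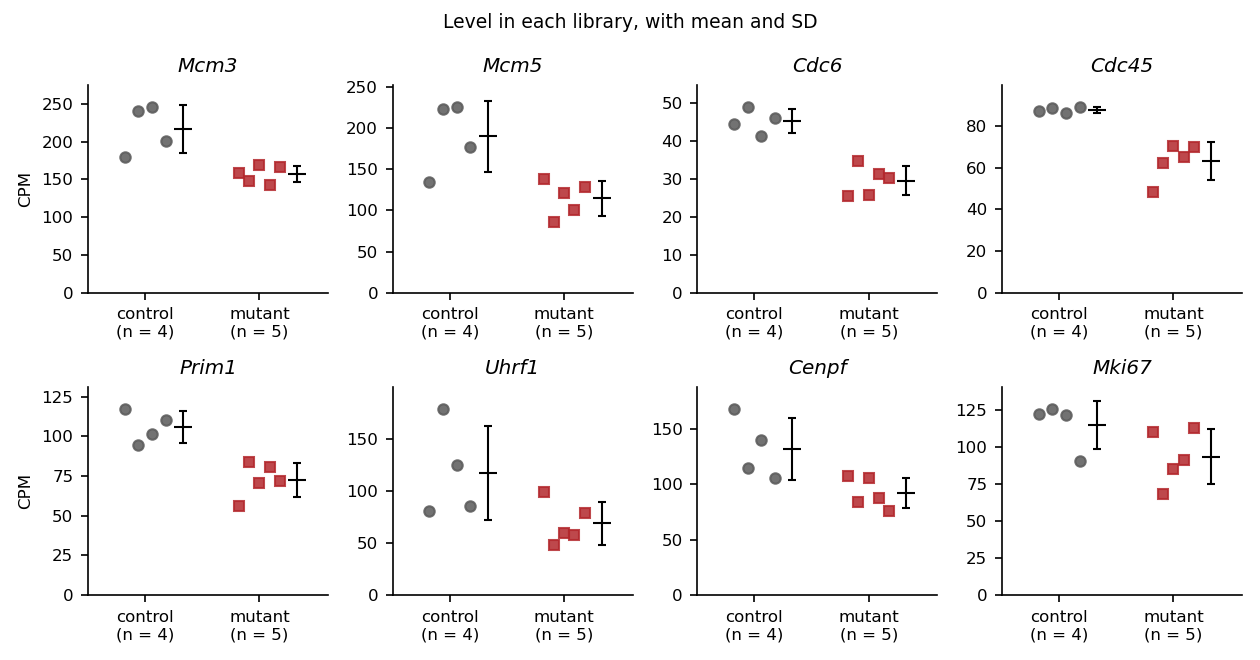
Level in CPM (y axis, from 0) of the 7 members called lower and of Mki67 in each of 4 control libraries (circles) and 5 mutant libraries (squares), with the mean and SD beside them. Mcm3, Cdc6, Cdc45 and Prim1 do not overlap between groups; Mcm5, Uhrf1, Cenpf and Mki67 do.

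The genes that drive entry into mitosis showed no detectable difference. Cdk1, the mitotic kinase, was at 302, 191, 226 and 219 CPM in controls and 206, 268, 291, 284 and 205 CPM in mutants. The highest library was control 71, and the groups overlapped throughout (log2 fold change 0.10, 95% interval -0.24 to 0.43). Ccnb2, a B cyclin, was at 252, 140, 183 and 169 CPM against 131, 187, 199, 165 and 120 CPM, again with control 71 highest (log2 fold change -0.22, 95% interval -0.61 to 0.18). Ccnb1 (-0.03), Ccna2 (0.03) and Foxm1 (-0.14), the transcription factor of this group of genes, were close to 0, with intervals of -0.44 to 0.38, -0.23 to 0.29 and -0.65 to 0.37. None of these 5 genes had an unadjusted p-value under 0.05, which does not show that their levels were alike.

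All 7 genes of the mitotic and checkpoint kinase group were fitted lower, and 0 of 7 passed the test. Birc5 was placed in this group but does not encode a kinase. At an unadjusted p-value under 0.05, 2 of 7 (Bub1b and Ttk) were lower, as were 2273 of all 14990 genes tested. Bub1b, which encodes the checkpoint protein BUBR1, was at 95.6, 146, 112 and 92.6 CPM in controls and 83.1, 51.4, 88.0, 90.8 and 85.5 CPM in mutants. The groups did not overlap, but mutant 78 lay just under control 76, and the log2 fold change of -0.48 (SE 0.18) had an adjusted p of 0.0792 (range 0.0279 to 0.25; exact permutation p = 0.00794). Aurka, a kinase of the centrosome and spindle, was at 166, 97.4, 124 and 94.7 CPM against 115, 119, 126, 124 and 104 CPM. Its mutants lay inside the control range (log2 fold change -0.03, 95% interval -0.37 to 0.30). Ttk, the kinase that starts checkpoint signalling, had a value of -0.39 (SE 0.13, adjusted p = 0.0645). Plk1 (-0.34), Aurkb (-0.23), Birc5 (-0.20) and Bub1 (-0.12) had adjusted p-values from 0.174 to 0.615.

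The partners of the anaphase-promoting complex were fitted lower without passing the test. Cdc20, its activator, was at 311, 226, 263 and 208 CPM in controls and 223, 165, 226, 188 and 159 CPM in mutants (log2 fold change -0.39, SE 0.15, adjusted p = 0.0909). Ube2c, its ubiquitin-conjugating enzyme, was at 376, 212, 312 and 264 CPM against 209, 316, 331, 347 and 188 CPM (log2 fold change -0.07, 95% interval -0.50 to 0.37). Both genes were highest in control 71 and lowest in mutant 79, and 22.8% of the exonic bases of Ube2c are shared with Tnnc2 on the opposite strand.

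Cenpf, a large kinetochore and nuclear matrix protein made in G2, was the G2/M gene that fell. Cenpf (chr1:189640599-189688086) was at 168, 115, 140 and 106 CPM in controls and 108, 84.1, 106, 87.8 and 75.9 CPM in mutants. Control 76, the lowest control, lay among the mutants. Its log2 fold change was -0.52 (SE 0.15, adjusted p = 0.0384, range 0.0068 to 0.116; exact permutation p = 0.0397), and the call was lost without control 71, control 73, mutant 75, mutant 78 or mutant 79. Cenpe, a kinesin of the kinetochore, was at 161, 116, 120 and 116 CPM against 135, 121, 138, 132 and 117 CPM. Control 71 was high and the other controls lay below or beside the mutants (log2 fold change 0.01, 95% interval -0.26 to 0.27). The spindle genes Kif23 (-0.34), Tpx2 (-0.34), Nusap1 (-0.19) and Kif11 (-0.08) did not pass the test.

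Mki67, the proliferation marker, did not pass the test. It was at 122, 125, 122 and 90.6 CPM in controls and 110, 68.0, 84.8, 91.2 and 113 CPM in mutants. Controls 71, 72 and 73 lay above all mutants, and control 76 lay among them (log2 fold change -0.30, SE 0.16, 95% interval -0.64 to 0.04, adjusted p = 0.208; exact permutation p = 0.143). Top2a, which untangles chromosomes, was at 235, 276, 273 and 214 CPM against 244, 176, 209, 205 and 219 CPM (log2 fold change -0.24, 95% interval -0.51 to 0.02). Both genes were called lower by limma-voom and after correction for GC content and gene length, where Mki67 had an adjusted p of 0.0268 and Top2a of 0.0246.

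Set per kilobase of gene model, the levels of the members differed widely from one gene to the next. Pcna was the most abundant in controls (169 CPM per kb), followed by Ccnb1 (148), Cdc20 (140), Ube2c (133) and Ccnb2 (121). Mcm7 (107) and Mcm6 (91.7) led the helicase subunits, where Mcm2 had 47.7. The lowest of the tested members were the origin factor Mcm10 (5.07), the transcription factor Foxm1 (5.26), Ccne2 (7.89), Pola1 (8.98) and Cdc6 (9.39). No test was run between genes.

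The libraries differed in ways that the genotypes only partly followed. Averaged over the replication genes, log2 CPM relative to the mean of all 9 libraries was -0.0019, 0.32, 0.25 and 0.18 in controls and -0.22, -0.19, -0.07, -0.18 and -0.08 in mutants. Every mutant lay below every control in this average, with control 71 nearest to the mutants. For G2/M genes it was 0.32, 0.03, 0.17 and -0.07 in controls and -0.10, -0.20, 0.04, -0.0022 and -0.20 in mutants, and the groups overlapped. Control 71, the lowest control for replication genes, was the highest of all libraries for G2/M genes: it held the top value of 15 of 22 G2/M genes, against 13.2% of all genes of at least 10 CPM. It also held the lowest value of 17.2% of all genes of at least 10 CPM. The libraries differed in their trend on gene length too. Across such genes with a transcript sequence, Spearman's correlation of this relative log2 CPM with gene length was -0.44, 0.25, 0.04 and -0.21 in controls. In mutants it was 0.35, -0.22, -0.10, -0.10 and 0.47. The part of these trends in the values of the members was not tested. Without control 71, 0 G2/M genes were called and their median was -0.15, while 4.33% of all genes were called lower. Mutant 74 held the lowest value of 9 of 21 replication genes (11.4% of all genes), and without it 8 replication genes and 3 G2/M genes were called, with 10.4% of all genes called lower. Without control 73, 2 replication genes and 0 G2/M genes were called, with 3.22% of all genes. No G2/M gene was called without mutant 75, 78 or 79 either (5.28%, 4.14% and 5.61% of all genes called lower), so the count over the whole table moved with the libraries left out as well.

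Fold changes across the whole table also followed base composition. Across 8939 genes of at least 10 CPM with a transcript sequence, Spearman's correlation of log2 fold change with GC content was -0.31, a description across genes that share libraries. For the log2 CPM of each library, relative to the mean of all libraries, the correlation with GC content was 0.18, 0.34, 0.26 and -0.03 in controls. In mutants it was 0.28, -0.38, -0.39, -0.31 and -0.01. Mutant 74 lay among controls 71 to 73, so this trend only partly followed genotype. With the genes split into 10 bins by GC content, the median log2 fold change was 0.21 in the lowest bin and -0.17 in the highest. The members' median GC content was 47.8% (49.3% for replication and 47.0% for G2/M genes), near the middle of that range. An offset for each library's trend on GC content and gene length, added after seeing the data, left the medians at -0.29 for replication and -0.24 for G2/M genes. With it 9 replication genes and 4 G2/M genes were called lower and 0 higher, beside 9.87% of all genes called lower. The 7 members called without the offset were called with it. E2f1, rich in GC, moved from -0.75 to -0.54. Cenpf, poor in GC and the longest of the members (11137 bases), moved from -0.52 to -0.70. The parts of GC content and length in these shifts were not tested.

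**Figure D5:**
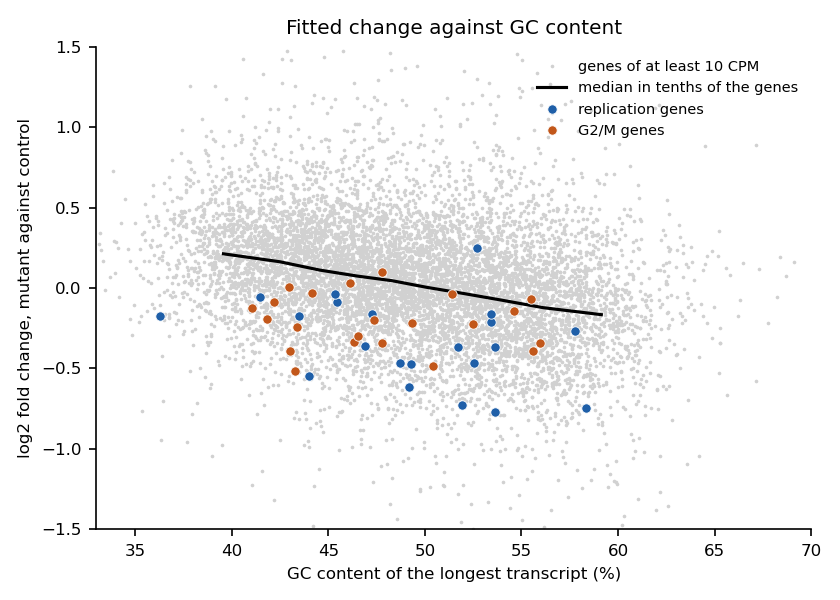
Log2 fold change of mutant against control (y axis; points beyond the axis are not drawn) against GC content of the longest transcript (x axis, %) for 8939 genes of at least 10 CPM, with the median in each of 10 bins of genes (line) and the replication and G2/M genes (coloured). The line falls from 0.21 to -0.17, and 39 of the 43 members lie below 0.

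Among replication genes, the fitted changes of those with and without an E2F match in the promoter lay close together. Of the 9 replication genes with an E2F match, 4 were called lower (Mcm3, Mcm5, Cdc6 and Uhrf1) with a median of -0.37 on the log2 scale. Of the 8 tested without a match, 2 were called (Cdc45 and Prim1) and the median was -0.42. Among G2/M genes, the 14 with a CHR had a median of -0.27 with 1 call (Cenpf), and the 4 without had a median of -0.11 with 0 calls. These are counts over few genes, and no test was run on them. A gene without a match held none of the exact words searched in its window, which does not show that it has no such site.

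Other genes of DNA replication were measured too. Of 51 further genes of origins, forks, clamp loading and histone supply, 11 fell (21.6%, beside 7.02% of all genes) and 2 rose (beside 7.82%). Fitted values were below 0 for 39 and above 0 for 12 (median log2 fold change -0.22). At an unadjusted p-value under 0.05, 22 were lower and 3 higher, where 2273 of all 14990 genes tested were lower and 2436 higher. Leaving out control 73 left 0 of the 51 called lower and 1 higher, where 3.22% of all genes were called lower. Among the 11 genes called lower, the largest decrease was that of Chtf18, of the clamp loader used in cohesion (-1.24, 23.3 ± 8.66 against 9.80 ± 4.16 CPM, adjusted p = 0.0164). Next were Wdhd1, which ties polymerase alpha to the helicase (-0.70, adjusted p = 0.0177), and Pole, the catalytic subunit of polymerase epsilon (-0.62, adjusted p = 0.0284). The others called lower were Timeless, Clspn, Pola2, Pold4, Rfc2, Rfc5, Rpa1 and Asf1b, from -0.42 to -0.55. Dbf4, the activating subunit of the CDC7 kinase that fires origins, rose (0.60, 44.9 ± 9.05 against 67.9 ± 5.10 CPM, adjusted p = 0.0149), as did Orc4, of the origin recognition complex (0.69, adjusted p = 0.0333).

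Of 77 further genes of mitosis, 6 fell and 0 rose, 7.79% beside the 7.02% of all genes (median -0.18). At an unadjusted p-value under 0.05, 17 were lower and 2 higher, where 2273 of all 14990 genes tested were lower and 2436 higher. The 6 that fell were Pkmyt1, an inhibitory kinase of CDK1 (-0.65, adjusted p = 0.0276), Kif2c, a microtubule depolymerase (-0.60, adjusted p = 0.0378), Spc24, of the NDC80 complex (-0.58, adjusted p = 0.00874), the centromere gene Cenpm (-0.56), the phosphatase Cdc25c (-0.48) and the condensin II gene Ncaph2 (-0.43). Of 18 genes of E2F and DREAM factors, whose binding to these promoters was not measured, 0 fell and 1 rose, beside 7.82% of all genes called higher. At an unadjusted p-value under 0.05, 2 were lower and 5 higher, beside the same 2273 and 2436 of all genes. The gene that rose was E2f4, a mainly repressive E2F of the DREAM complex, at 107 ± 17.9 CPM (n = 4) in controls and 148 ± 21.8 CPM (n = 5) in mutants (log2 fold change 0.46, SE 0.15, adjusted p = 0.0486). The median of these 18 genes was 0.21. With upper-quartile normalisation, and without control 71, 72 or 73 or mutant 75, 77, 78 or 79, 0 of the 18 were called higher.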

How the data were processed

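RNA was amplified as cDNA from sorted cells, selected for poly(A) and sequenced without strand information. The deposited table holds raw read counts per gene and library, made by the authors; the submitters' notes name STAR, DESeq2 and mm10 without roles, and the counting tool was not given in the sources used here. Its FPKM values and the authors' own columns (mean signal per genotype, log2 fold change, p-values) were not used. Its gene length was used to set levels per kilobase, for the libraries' trends on length and in the offset for GC content and length. Identifiers of all 44 members matched GENCODE M21, in which 32 have the same start and end.

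In R 4.3.3, genes kept by filterByExpr on genotype were compared with edgeR 4.0.16 (TMM, robust quasi-likelihood test, Benjamini-Hochberg over all genes tested, threshold 0.05). The SE is the absolute log2 fold change over the square root of F, and 95% intervals use the t distribution with the test's total degrees of freedom. Exact permutation tests, 2-sided, used log2(CPM + 0.5) over all 126 assignments. Alternatives were RLE and upper-quartile normalisation, filters (none beyond 1 count, at least 10 counts in every library), DESeq2 1.42.0, limma-voom with quality weights (limma 3.58.1), 1 surrogate variable (sva 3.50.0), a threshold of 0.1, each library left out and, added after seeing the data, a loess offset (span 0.5) on GC content and length. Models were tested on simulated data. Motifs were counted with Python 3.11.15 and plots drawn with matplotlib 3.10.9.

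Members with values per library are those past the threshold, Mki67, and in each role group the highest and lowest fitted; from other lists, genes past the threshold or the 3 largest changes each way. The members and lists were chosen with earlier results of these data known. No pair of libraries held identical counts.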

Additional observations from a re-analysis of the deposited data

Results flagged for a closer look

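In 4 of 86 groups of libraries (the 4 controls or the 5 mutants of 1 member), 1 library stood apart from the rest of its group by Dixon's limit, where chance alone gives about 4.3, or 1 in 20. Ccne2 was low in control 71, at 16.1 CPM with the nearest control at 25.7 CPM. Cenpe was high in the same library, at 161 CPM against 120 CPM. Bub1b was low in mutant 75, at 51.4 CPM, with the nearest mutant at 83.1 CPM. Mki67 was low in control 76, at 90.6 CPM, with the nearest control at 122 CPM.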

How the results depend on the processing

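No paired analysis was possible because the control and mutant libraries share no replicate numbers. The median log2 fold change stayed below 0 in every alternative run, from -0.39 to -0.27 for replication genes and from -0.26 to -0.15 for G2/M genes. Counts of calls depended far more on the method than the medians did. For members, 7 were called, and limma-voom called 20, 1 surrogate variable 15, the GC and length offset 13 and a threshold of 0.1 12, with 2 to 11 when 1 library was left out. The share of all genes called lower moved too, from 7.02% to 16.4% with limma-voom, 9.91% with 1 surrogate variable, 9.87% with the offset and 11.4% at the threshold of 0.1, and it ran from 3.22% to 10.4% when 1 library was left out. For replication genes, 6 were called, limma-voom and 1 surrogate variable each called 11, and leaving out 1 library gave 2 to 8. For G2/M genes, 1 was called, limma-voom called 9, 1 surrogate variable, the offset and the threshold of 0.1 each called 4, and leaving out 1 library gave 0 to 3. Counts for the further lists below are of calls in either direction. The share of all genes called in either direction was 14.8% in the main fit, 32.4% with limma-voom and 23.8% at the threshold of 0.1. It was 19.6% with the offset, 20.8% with 1 surrogate variable, 19.0% with DESeq2 and 14.6% with upper-quartile normalisation. With 1 library left out it ran from 6.85% to 21.2%. For other replication genes, 13 were called (2 higher and 11 lower), limma-voom called 22, the offset 20, and leaving out 1 library gave 1 to 17. For other mitosis genes, 6 were called, limma-voom called 22, DESeq2, 1 surrogate variable and the offset each 11, the threshold of 0.1 15, and leaving out 1 library gave 1 to 15. For E2F and DREAM regulators, 1 was called and upper-quartile normalisation called 0. DESeq2 called 2 (1 higher and 1 lower), limma-voom 9 (6 higher and 3 lower) and the threshold of 0.1 4 (3 higher and 1 lower). Leaving out 1 library gave 0 to 4. The cause of these shifts was not tested. The log2 fold changes below changed sign, none of them of a called gene. With limma-voom these were Pcna (0.10), Pola1 (0.0020), Ccnb1 (0.048), Aurka (0.016), Bub1 (0.011) and Ube2c (0.010). With 1 surrogate variable they were Ccna2 (-0.053), Cdk1 (-0.050), Foxm1 (0.082) and Cenpe (-0.025), with the offset Ccna2 (-0.024), Aurka (0.0018), Ube2c (0.094) and Cenpe (-0.19), and with upper-quartile normalisation Cenpe (-0.022). Leaving out 1 library moved Mcm4 from -0.21 to 0.0013, Pcna from -0.12 to 0.088, Pola1 from -0.20 to 0.12, Ccna2 from -0.011 to 0.10, Ccnb1 from -0.16 to 0.078, Aurka from -0.13 to 0.16, Birc5 from -0.29 to 0.0013, Ube2c from -0.19 to 0.081 and Cenpe from -0.038 to 0.14. No alternative varied the depth; the lowest count of a tested member in a library was 263 reads.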
